A study of Rattus norvegicus with 20 samples.

Results

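The promoters of cytochrome P450 genes were examined for binding of the NF-kB subunit p65 in rat liver, with ChIP-chip, in which immunoprecipitated chromatin is read on tiling arrays of promoters. The members were all genes whose symbol in any of the authors' peak lists begins with Cyp followed by a digit. This gave 59 of the 14368 genes of those lists, with 60 of the 14637 transcription starts that could be tested. A gene enters only with at least 1 peak on at least 1 array, so a P450 gene with no listed peak was not analysed here. By family the set held 31 genes of families 1 to 3, 13 genes (14 starts) of family 4 and 15 genes of families 7 to 51. Cyp4a2 has 2 listed starts, and the second lies 4 bp from that of Cyp4a3 and shares its window.

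Cytochromes P450 are haem enzymes of the endoplasmic reticulum or the mitochondria that insert 1 oxygen atom into their substrate, with electrons passed on by P450 oxidoreductase or by adrenodoxin. The liver is their main site. Families 1 to 3 oxidise drugs, toxins and ethanol, family 4 hydroxylates fatty acids and eicosanoids, and the higher families make or break down cholesterol, bile acids, steroid hormones, retinoic acid and vitamin D. Inflammation is known to lower the expression of many hepatic P450 genes, and NF-kB is known to interfere with the nuclear receptors that drive several of them. The arrays measured binding and not expression, so the tissue label could not be checked against marker levels.

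All rats were wild-type male Sprague Dawley animals, 8 to 10 weeks old. For 5 weeks they were fed liquid food in which ethanol made up 36% of calories, or pair-fed food in which carbohydrate replaced the ethanol. Liver was taken at a 70% partial hepatectomy (0h, from the left lateral and median lobes) and from the remnant lobes 1h and 6h later. The ethanol diet had 3, 3 and 4 arrays at 0h, 1h and 6h, and the carbohydrate diet likewise had 3, 3 and 4. Time after the operation thus differs from 0h in the lobes sampled as well, and whole liver holds hepatocytes and other cells, so binding in more cells and stronger binding per cell cannot be told apart. The series asks whether chronic ethanol feeding alters the promoters bound by NF-kB during regeneration.

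Promoter signal is the mean log2 ratio of p65 to reference DNA over a 500 bp window within 5 kb of the start, on arrays of 713735 probes. In each promoter the window with the highest mean over the 6 groups was used, whatever the group. The sign is likely but not stated in the labels, since the authors' peaks lay at negative deposited values and every value was turned. Turning it back would mirror every value and direction in these windows. Identifiers of the arrays placed them in 4 runs. The first run held 5 of the 6 arrays of 0h and nothing else. The second run was 1 slide with ethanol 0h replicate 2, ethanol 1h replicate 1 and carbohydrate 1h replicate 1, and the third held 11 of the 14 later arrays. Differences from 0h therefore cannot be told apart from run, while 6h and 1h can be compared within the third run. The labels number biological replicates but do not name animals, and by the identifiers 16 animals gave the 20 arrays, so p-values measure the spread between these arrays.

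Promoters of 3 Cyp2d genes, which oxidise many amine drugs, and of Cyp4f1, a fatty acid and leukotriene hydroxylase, are shown because Cyp4f1 and Cyp2d1 had the largest called differences between 6h and 1h, with Cyp2d3 and Cyp2d5 as close relatives of Cyp2d1. Each sequence is the 250 bases just upstream of the start (positions −250 to −1) on the minus strand of chromosome 7 in RefSeq's GRCr8. In the Cyp2d promoters the capitals mark the match to the NF-kB consensus in Cyp2d1 and the bases aligned to it in the other 2. In Cyp4f1 they mark a CCAAT box.
Cyp2d1 (chr7:115793431-115793680): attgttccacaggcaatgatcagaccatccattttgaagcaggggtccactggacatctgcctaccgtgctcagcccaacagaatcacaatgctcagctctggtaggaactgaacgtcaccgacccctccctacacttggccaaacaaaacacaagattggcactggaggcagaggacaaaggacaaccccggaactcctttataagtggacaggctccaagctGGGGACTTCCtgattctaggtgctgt
Cyp2d3 (chr7:115802143-115802392): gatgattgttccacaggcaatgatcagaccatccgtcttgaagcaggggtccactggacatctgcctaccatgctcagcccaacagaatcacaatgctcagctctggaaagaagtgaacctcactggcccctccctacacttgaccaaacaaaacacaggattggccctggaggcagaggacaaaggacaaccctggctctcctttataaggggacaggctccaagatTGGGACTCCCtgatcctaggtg
Cyp2d5 (chr7:115784488-115784737): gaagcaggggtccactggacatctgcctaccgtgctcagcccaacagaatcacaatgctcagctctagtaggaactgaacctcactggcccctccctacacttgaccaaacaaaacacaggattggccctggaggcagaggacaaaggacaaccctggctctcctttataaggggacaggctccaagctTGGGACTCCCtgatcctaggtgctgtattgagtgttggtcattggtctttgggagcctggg
Cyp4f1 (chr7:12672554-12672803): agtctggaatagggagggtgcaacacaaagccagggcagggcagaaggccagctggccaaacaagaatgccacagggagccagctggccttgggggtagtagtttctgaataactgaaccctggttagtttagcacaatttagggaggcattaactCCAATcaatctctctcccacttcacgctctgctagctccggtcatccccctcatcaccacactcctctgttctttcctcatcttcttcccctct

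The promoters of Cyp4a2 and Cyp4a3, hydroxylases of fatty acids under control of the receptor PPARalpha, are shown because they carried peaks on more arrays than any other P450 gene and are nearly the same sequence. They come from the minus strand of chromosome 5, again 250 bases upstream of the start in GRCr8, with capitals at the bases that differ between them or stand against a gap.
Cyp4a2 (chr5:134170909-134171158): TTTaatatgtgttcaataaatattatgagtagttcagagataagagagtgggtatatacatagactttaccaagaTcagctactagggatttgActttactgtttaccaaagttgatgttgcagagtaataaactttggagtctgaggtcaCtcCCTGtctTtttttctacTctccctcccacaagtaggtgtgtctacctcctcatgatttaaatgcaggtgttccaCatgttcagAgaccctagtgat
Cyp4a3 (chr5:134352237-134352486): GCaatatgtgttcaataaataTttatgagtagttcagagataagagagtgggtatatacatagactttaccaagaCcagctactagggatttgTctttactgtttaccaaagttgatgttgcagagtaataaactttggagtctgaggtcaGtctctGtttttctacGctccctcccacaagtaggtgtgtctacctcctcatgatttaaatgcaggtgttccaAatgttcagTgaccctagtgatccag

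Over 300 bases from −250 to +50 the aligned promoters of Cyp4a2 and Cyp4a3 were identical at 94.7% of positions, those of Cyp2d1 and Cyp2d3 at 89.3% and those of Cyp2d1 and Cyp2d5 at 82%. Probes of such close relatives may read each other's DNA, and this was not tested. In the same 300 bases of 45 P450 promoters found in the RefSeq table, the NF-kB consensus (both strands) was present in 2, or 4.44%, beside 7.51% of all 33469 promoters. The 2 were Cyp2d1, at −26 to −17, and the male-specific steroid hydroxylase listed as Cyp2c, now Cyp2c11, at −3 to 6. The TATA box TATAAA was found in 11 of the 45 (24.4%, beside 14.2% of all promoters), CCAAT in 21 (46.7%, beside 37.5%) and GGGCGG, a site of Sp1, in 15 (33.3%, beside 33.1%), each on either strand. These are matches of letters within a short window. In the files' own coordinates, whose genome build is not given in the sources used here, the signal window of Cyp4f1 covered its start, with its centre at −135.5 bp. The window of Cyp2d1 was centred at −458.5 bp and that of Cyp2d3 at 812 bp, inside the gene. That of Cyp2d5 was centred at −3328.5 bp. The printed bases of these 3 genes thus lay partly or wholly outside their windows.

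P450 genes carried p65 peaks about as often as other genes. The median P450 gene had a peak on 6 of the 20 arrays, as did the median gene of the lists. Cyp4a2 led with 16 arrays, followed by Cyp4a3 with 15, Cyp2d3 with 14 and Cyp11b3, a close relative of the adrenal corticosteroid enzymes, with 13. Peaks were counted by gene, so the count of Cyp4a2 pools both its listed starts, including the start beside Cyp4a3. Cyp4f5, a fatty acid hydroxylase, and Cyp20a1, an orphan P450 without a settled substrate, had peaks on 12 arrays each. Cyp4a1 and Cyp4a10, whose starts lie 29 bp apart and share 1 window, had 11 each. Cyp11b1, which makes corticosterone, and Cyp3a2, a steroid and drug hydroxylase, had 10 each. At the other end 3 genes had a peak on a single array, and no P450 gene had one on 17 or more.

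The 540 P450 peaks lay at a median of −1137 bp from the start, beside −1176 bp for the peaks of all genes, and 20.9% of them, beside 18.9%, fell within 500 bp of it. Their median authors' score was 0.522, beside 0.497, and 36.9% of them, beside 38.1%, had an authors' FDR of at most 0.05. The classes differed in position. The peaks of families 1 to 3 had a median distance of −693 bp (236 peaks), those of family 4 one of −1562 bp (140 peaks) and those of families 7 to 51 one of −1373.5 bp (164 peaks), with no test made. Members of a gene cluster share peaks, so these are not independent counts.

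Genes with a peak on 2 or more arrays of a group were called bound there. In ethanol-fed rats 20 P450 genes (33.9%) were bound at 0h, beside 19.7% of all genes, 22 (37.3%, beside 41.6%) at 1h and 16 (27.1%, beside 30.2%) at 6h. In carbohydrate-fed rats 14 (23.7%, beside 20.6%) were bound at 0h, 21 (35.6%, beside 28.8%) at 1h and 21 (35.6%, beside 39.6%) at 6h. The share at 0h in ethanol-fed rats stood furthest from that of all genes. It rested in part on ethanol 0h replicate 2, the 0h array of the second run, where 55.9% of P450 genes and 34.8% of all genes had a peak. Without that array 9 P450 genes were bound at 0h in ethanol-fed rats (15.3%, beside 10.1% of all genes). Leaving out any 1 array lowers these counts by construction, to between 9 and 11 in that group.

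By class the counts of bound genes varied with time, with no test made. The classes held 31, 13 and 15 genes, and the shares of all genes bound are those given above. In ethanol-fed rats 11 genes of families 1 to 3, 3 of family 4 and 6 of families 7 to 51 were bound at 0h, 10, 7 and 5 at 1h, and 7, 4 and 5 at 6h. In carbohydrate-fed rats the counts were 8, 2 and 4 at 0h, 12, 4 and 5 at 1h, and 9, 8 and 4 at 6h. At 1h Cyp2d1, Cyp2d5, the retinoic acid hydroxylase Cyp26a1 and the cholesterol hydroxylase Cyp46a1 had a peak on all 3 arrays of each diet, and at 6h on at most 1 array of either diet. The share of all genes with this pattern was not counted. Cyp4a2 and Cyp4a3 also had a peak on all 3 arrays of 1h in each diet, but were bound at 6h in both diets. A peak on all arrays of 1h was found at 15.3% of P450 genes in ethanol-fed rats, beside 15.6% of all genes. In carbohydrate-fed rats it was found at 13.6%, beside 11.4%. At 6h Cyp11b1, Cyp11b3 and Cyp4f5 had one on all 4 arrays of carbohydrate-fed rats (5.08% of P450 genes, beside 11.6% of all genes). On the ethanol 6h arrays Cyp11b3 had peaks on 4, and Cyp11b1 and Cyp4f5 on 2 each.

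**Figure D1:**
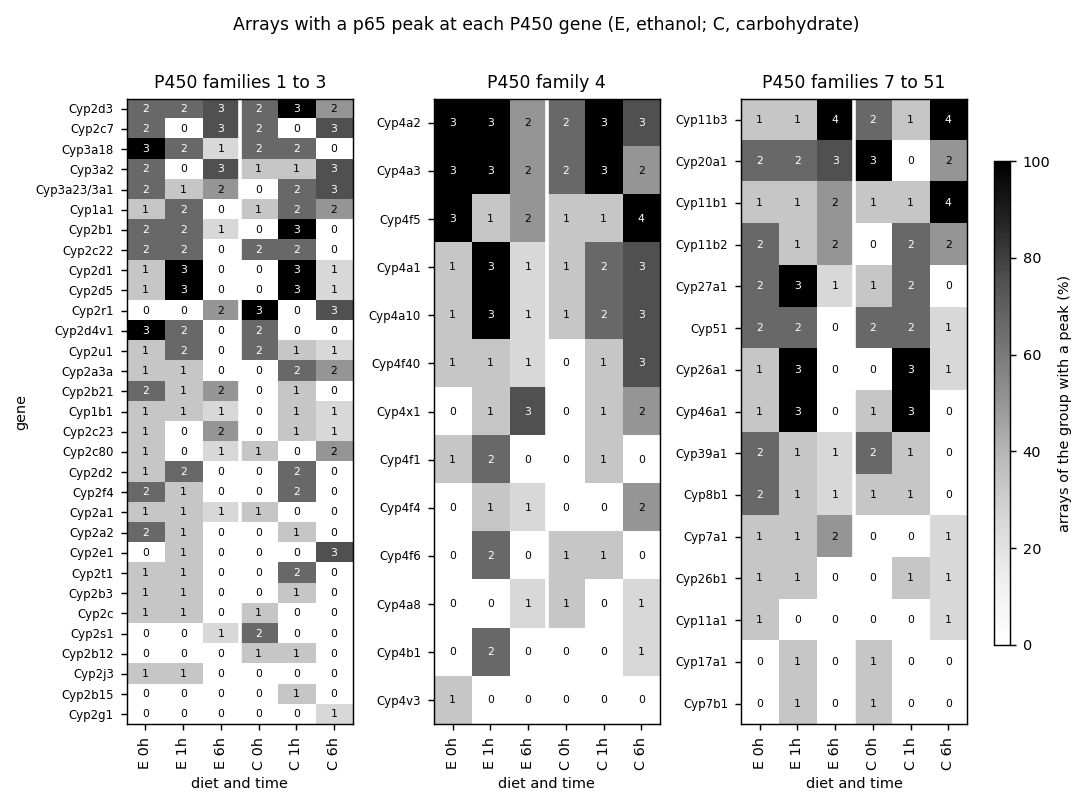
Number of arrays with a p65 peak at each of 59 P450 genes (rows) in each diet and time (columns; E, ethanol, C, carbohydrate), in 3 panels by family, with shading for the share of the group's 3 or 4 arrays. Cyp2d1, Cyp2d5, Cyp26a1, Cyp46a1, Cyp4a2 and Cyp4a3 are dark at 1h in both diets, and Cyp11b3 is dark at 6h in both.

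The mean promoter signal over all 20 arrays had a median of 0.23 (log2) over the 60 P450 starts, beside 0.24 over all starts, and 46.7% of P450 starts lay above the median of all starts. It ranged from 0.09 at Cyp2f4 to 0.46 at Cyp51, the lanosterol demethylase of cholesterol synthesis. Since each window was chosen for its height, these levels lie above 0 by construction. By side, 42 windows were centred upstream of the start and 18 downstream, and 16 of the 60 lay within 500 bp of it.

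The change from 1h to 6h was the time comparison least tied to run, with 11 of its 14 arrays in the third run. In ethanol-fed rats signal fell at 11 of 60 P450 starts and rose at none (limma with Benjamini-Hochberg adjustment over 14637 starts), beside 20.6% of all starts that fell and 6.57% that rose, 27.2% in all. In carbohydrate-fed rats it fell at 4 and rose at 5, beside 8.68% and 14.7% of all starts, 23.4% in all. The median difference over P450 starts was −0.14 in ethanol-fed rats, beside −0.13 over all starts, and 0.03 in carbohydrate-fed rats, beside 0.03. By these medians the P450 starts lay close to all starts.

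Cyp4f1 fell in both diets. In ethanol-fed rats its signal was −0.52, −0.36, −0.28 and −0.24 on the 6h arrays, against 0.77, 0.58 and 0.20 on the 1h arrays. All 4 arrays of 6h lay below 0 and all 3 of 1h above it. The difference was −0.87 ± 0.15 (SE, limma adjusted p = 0.000334), and −0.74 within the third run (adjusted p = 3.59e-05), and the call held without any 1 of the 7 arrays. In carbohydrate-fed rats the values were −0.30, 0.08, −0.06 and 0.02 at 6h, against 0.62, 0.35 and 0.22 at 1h, again without overlap. That difference was −0.46 ± 0.15 (limma adjusted p = 0.0242), but within the third run it was −0.27 (adjusted p = 0.13). This window spans 13600791 to 13601192 of chromosome 7 and covers the start at 13600856, on the minus strand. Its neighbour Cyp4f6, a hydroxylase of the same subfamily, averaged 0.01 at 6h and 0.44 at 1h in ethanol-fed rats (difference −0.43 ± 0.13, limma adjusted p = 0.0185), with overlapping arrays.

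Among the Cyp2d genes the fall was called at Cyp2d1 in carbohydrate-fed rats and at Cyp2d5 and Cyp2d4v1 (now Cyp2d4) in ethanol-fed rats. Cyp2d1 (window on chromosome 7 from 120774316 to 120774811) had signals of −0.14, 0.04, 0.16 and 0.01 on the carbohydrate 6h arrays, against 0.79, 0.70 and 0.79 at 1h. The 1h arrays stood well clear of all others of that diet, and the difference of −0.74 ± 0.18 (limma adjusted p = 0.00531) held without any 1 of the 7 arrays and within the third run (−0.68, adjusted p = 0.000268). In ethanol-fed rats Cyp2d1 had 0.07, 0.18, −0.13 and 0.07 at 6h, against 0.70, 0.31 and 0.33 at 1h, a difference of −0.40 that did not pass (limma adjusted p = 0.100). Cyp2d5 had −0.09, 0.05, 0.17 and 0.08 at 6h in ethanol-fed rats, against 0.91, 0.14 and 1.01 at 1h (difference −0.63 ± 0.18, limma adjusted p = 0.0112), so that 1 array of 1h overlapped with those of 6h. Cyp2d4v1 averaged 0.01 at 6h and 0.44 at 1h (difference −0.43 ± 0.15, limma adjusted p = 0.0295), but −0.23 within the third run (adjusted p = 0.127). All 5 Cyp2d starts lay lower at 6h in each diet.

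**Figure D2:**
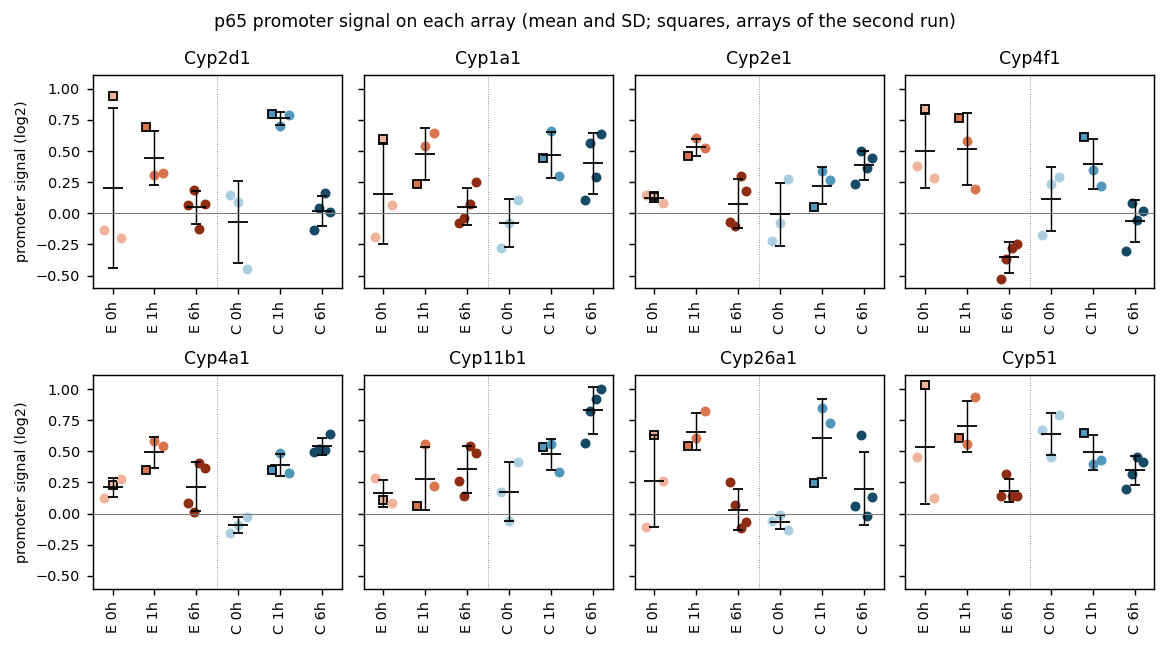
Promoter signal (log2) of 8 P450 genes on each array, with the mean and SD of the group as lines and the arrays of the second run as squares (E, ethanol, C, carbohydrate). At Cyp4f1 all 4 ethanol arrays of 6h lie below 0, from −0.52 to −0.24, and at Cyp2d1 the 3 carbohydrate arrays of 1h lie between 0.70 and 0.79.

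Both Cyp26 starts, of genes whose enzymes hydroxylate retinoic acid, fell in ethanol-fed rats. Cyp26a1, the main such enzyme of the liver, had 0.25, 0.07, −0.12 and −0.07 at 6h, against 0.54, 0.61 and 0.82 at 1h (difference −0.63 ± 0.16, limma adjusted p = 0.00716), in a window at 241952484 to 241952929 of chromosome 1. Cyp26b1, a second enzyme of this kind (window on chromosome 4 from 118754129 to 118754611), had −0.13, −0.23, 0.06 and −0.10 at 6h, against 0.21, 0.50 and 0.49 at 1h (difference −0.50 ± 0.12, limma adjusted p = 0.00355). Neither gene's groups overlapped, and both calls held without any 1 array. In carbohydrate-fed rats Cyp26a1 differed by −0.40 and missed the threshold (limma adjusted p = 0.0713), and Cyp26b1 by 0.07 (adjusted p = 0.679). Cyp26a1 did fall in carbohydrate-fed rats within the third run (−0.54, limma adjusted p = 0.011), with array run as a term (−0.48, adjusted p = 0.022) and without the second run (−0.59, adjusted p = 0.00509).

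Cyp2e1, the P450 that oxidises ethanol and is abundant around the central vein, fell in ethanol-fed rats. Its signal was −0.07, −0.10, 0.30 and 0.18 on the 6h arrays, against 0.46, 0.60 and 0.52 at 1h (difference −0.45 ± 0.13, limma adjusted p = 0.0098). The groups did not overlap and the call held without any 1 array. In carbohydrate-fed rats it had 0.23, 0.50, 0.36 and 0.44 at 6h, against 0.05, 0.34 and 0.27 at 1h, which overlapped (difference 0.16, limma adjusted p = 0.353). This window spans 200919242 to 200919540 of chromosome 1, just inside the gene, whose start is at 200918533 on the plus strand. Over the mean of all probes within 5 kb the ethanol difference was 0.04, so the fall was not seen in the mean of the region.

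Of the P450s of cholesterol and bile acid metabolism, Cyp51 and Cyp46a1 fell. Cyp51, which acts in cholesterol synthesis, had 0.14, 0.32, 0.14 and 0.14 at 6h in ethanol-fed rats, against 0.61, 0.56 and 0.94 at 1h (difference −0.52 ± 0.17, limma adjusted p = 0.0226). Cyp46a1, known for removing cholesterol from the brain, had −0.08, −0.11, −0.18 and −0.19 at 6h, against 0.59, 0.29 and 0.36 at 1h (difference −0.55 ± 0.16, limma adjusted p = 0.0113). In carbohydrate-fed rats Cyp46a1 also fell, with −0.10, 0.02, 0.09 and −0.01 at 6h, against 0.88, 0.32 and 0.30 at 1h (difference −0.50 ± 0.16, limma adjusted p = 0.0228), but by −0.28 within the third run (adjusted p = 0.0785). No groups overlapped in these 3 comparisons. Of 7 starts on the list of bile acid and cholesterol P450s, 2 fell and none rose in ethanol-fed rats (28.6%, beside 20.6% of all starts that fell), and all 7 differences lay below 0 (median −0.25, beside −0.13 over all starts). In carbohydrate-fed rats 1 fell, none rose and 3 lay above 0 (median −0.08, beside 0.03, with 8.68% of all starts falling).

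Cyp2t1 fell in both diets, with −0.33, −0.11, −0.23 and −0.09 at 6h in ethanol-fed rats, against 0.57, 0.12 and 0.29 at 1h (difference −0.52 ± 0.13, limma adjusted p = 0.0067). In carbohydrate-fed rats it had −0.04, −0.07, −0.03 and −0.09, against 0.77, 0.34 and 0.37 (difference −0.55 ± 0.13, limma adjusted p = 0.00522). All 8 arrays of 6h lay below 0 and all 6 of 1h above it. Within the third run the differences were −0.40 (adjusted p = 0.00797) in ethanol-fed and −0.41 (adjusted p = 0.0139) in carbohydrate-fed rats. Cyp1a1, which the aryl hydrocarbon receptor induces, averaged 0.05 at 6h and 0.47 at 1h in ethanol-fed rats (difference −0.42 ± 0.16, limma adjusted p = 0.0473), with overlapping arrays. With Cyp4f1 and Cyp46a1, Cyp2t1 made up the 3 starts that fell in both diets. How many of all starts fell in both diets was not counted, so this does not set P450 starts apart.

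**Figure D3:**
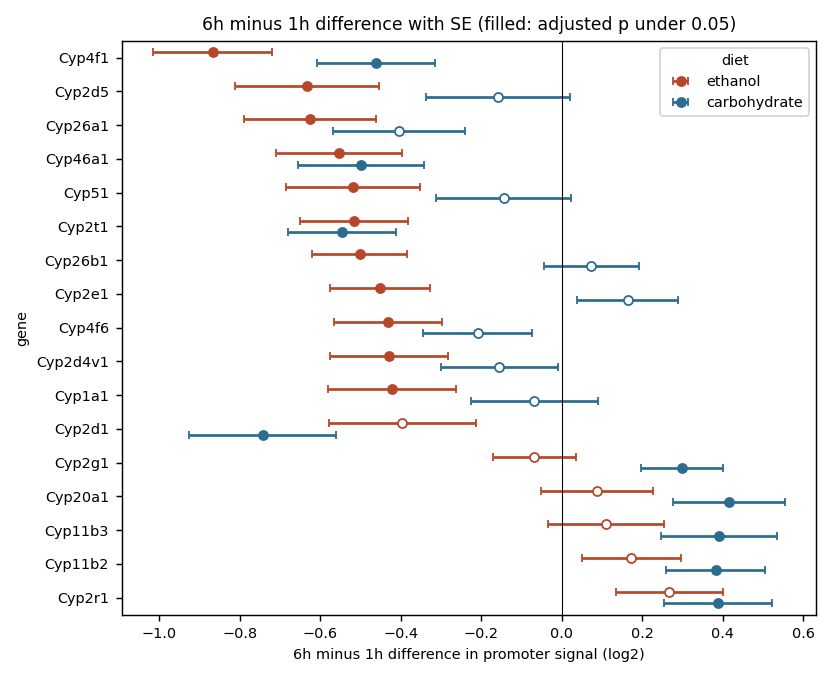
Difference in promoter signal between 6h and 1h (log2, 6h minus 1h) with its SE in ethanol-fed and carbohydrate-fed rats, for the 17 P450 starts called in at least 1 diet; filled points passed the test (limma, adjusted p under 0.05). Cyp4f1, Cyp46a1 and Cyp2t1 are filled below 0 in both diets, and the starts that rose did so in carbohydrate-fed rats.

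Between 1h and 6h signal rose at 5 starts in carbohydrate-fed rats, and the difference between the diets passed at none of them. Cyp11b2, the aldosterone synthase of the adrenal cortex, had 0.63, 0.53, 0.76 and 0.63 at 6h, against 0.21, 0.31 and 0.25 at 1h (difference 0.38 ± 0.12, limma adjusted p = 0.0255). Cyp11b3 had 0.49, 0.73, 0.75 and 0.74, against 0.35, 0.21 and 0.29 (difference 0.39 ± 0.14, limma adjusted p = 0.0495). Cyp20a1 had 0.16, 0.53, 0.44 and 0.55, against 0.08, −0.03 and −0.04 (difference 0.41 ± 0.14, limma adjusted p = 0.0319). In none of these did the 6h and 1h arrays overlap. By the mean of all probes within 1 kb of the start Cyp11b2 differed by −0.04 and Cyp20a1 by −0.02, so these rises were those of their windows. Within the third run Cyp11b2 differed by 0.36 (adjusted p = 0.0596). Cyp2r1, which hydroxylates vitamin D in the liver, averaged 0.39 at 6h and 0.00 at 1h (difference 0.39 ± 0.13, limma adjusted p = 0.0356), and Cyp2g1, an enzyme of the olfactory mucosa, 0.26 and −0.04 (difference 0.30 ± 0.10, limma adjusted p = 0.0357). Cyp11b1 averaged 0.83 at 6h and 0.48 at 1h, and was not called (difference 0.35, limma adjusted p = 0.091), but passed within the third run (0.47, adjusted p = 0.0319). In ethanol-fed rats the same 5 starts differed by 0.17, 0.11, 0.09, 0.27 and −0.07, in the order named.

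How many P450 starts passed between 1h and 6h depended on the arrays used. Within the third run 3 rose and 15 fell in ethanol-fed rats, beside 38.5% of all starts called, and 9 rose and 6 fell in carbohydrate-fed rats, beside 23.4%. Of the carbohydrate calls, 9 became 2 when carbohydrate 1h replicate 1 was left out, 4 for carbohydrate 6h replicate 3 and 5 for carbohydrate 1h replicate 3. The ethanol calls numbered between 8 and 12 without any 1 array. Single calls held without any 1 array at 5 of the 11 starts in ethanol-fed rats (Cyp4f1, Cyp26a1, Cyp26b1, Cyp2e1 and Cyp2t1) and at 1 of the 9 in carbohydrate-fed rats (Cyp2d1). By the mean of all probes within 5 kb, 13 rose and 12 fell in ethanol-fed rats, beside 48.5% of all starts called, and 8 rose and 12 fell in carbohydrate-fed rats, beside 37% of all. With arrays scaled to the same spread 1 rose and 11 fell in ethanol-fed rats (25.9% of all starts called), and none rose and 4 fell in carbohydrate-fed rats (17.1%). Of the calls over all starts in ethanol-fed rats 24.2% were rises, against 34.7% with scaled arrays and 40.6% after quantile normalization.

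**Figure D4:**
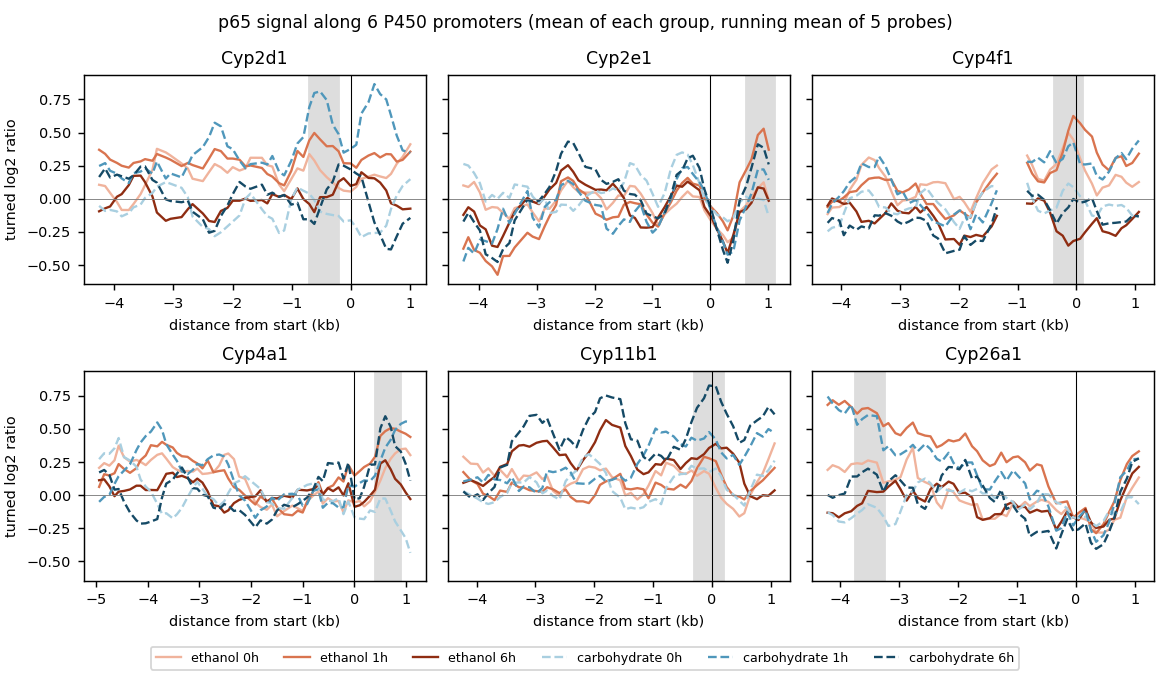
Turned log2 ratio along 6 P450 promoters by distance from the start (kb, negative upstream), as the mean of each diet and time smoothed over 5 probes, with the signal window shaded; solid lines are ethanol-fed and dashed lines carbohydrate-fed rats. Cyp2d1 is high in its window at 1h in carbohydrate-fed rats, and slightly higher outside it, just inside the gene. Cyp4f1 dips at its start at 6h in ethanol-fed rats, and Cyp11b1 is highest at its start at 6h in carbohydrate-fed rats.

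Against 0h, P450 calls were mainly rises in carbohydrate-fed rats. At 1h signal rose at 8 starts and fell at 1, beside 9.23% and 1.99% of all starts (11.2% in all). The median P450 difference was 0.13, beside 0.09 over all starts. Cyp2d1 had 0.79, 0.70 and 0.79 at 1h, against 0.15, 0.09 and −0.45 at 0h (difference 0.83 ± 0.19, limma adjusted p = 0.01). Cyp26a1 had 0.24, 0.84 and 0.73, against −0.06, −0.01 and −0.13 (difference 0.67 ± 0.18, limma adjusted p = 0.0166). Cyp1a1 had 0.44, 0.66 and 0.30, against −0.28, −0.08 and 0.11 (difference 0.55 ± 0.17, limma adjusted p = 0.0356). All 3 genes, as the other 6 calls, had groups that did not overlap. Calls picked for a small p with 3 arrays on each side tend to separate, so this adds no support.

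The other rises at 1h were smaller. The window shared by Cyp4a1 and Cyp4a10 (chromosome 5, from 135902024 to 135902524) had 0.35, 0.49 and 0.33 at 1h, against −0.16, −0.09 and −0.02 at 0h (difference 0.48 ± 0.13, limma adjusted p = 0.019) and counts as 2 starts. Rises were called at Cyp2c22, of a subfamily that oxidises drugs and retinoids (0.52 ± 0.16, limma adjusted p = 0.0391), at Cyp4f6 (0.49 ± 0.14, adjusted p = 0.0276) and at Cyp2j3, an epoxygenase of arachidonic acid (0.37 ± 0.10, adjusted p = 0.0248). By the mean of all probes within 5 kb Cyp2j3 turned to −0.06, and by that within 1 kb Cyp1a1 turned to −0.03. Cyp20a1 was the 1 fall, with 0.08, −0.03 and −0.04 at 1h, against 0.21, 0.60 and 0.63 at 0h (difference −0.47 ± 0.15, limma adjusted p = 0.0391). In ethanol-fed rats no P450 start passed at 1h (limma, 6 with an unadjusted p under 0.05, beside 0.232% of all starts that rose and 0.0137% that fell, 0.246% in all).

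All carbohydrate arrays of 0h lay in the first run and none of 1h or 6h did, so these calls cannot be told apart from run or lobe. With array run as a term in the model none of the 9 passed, and the difference was −0.14 at Cyp2d1, −0.12 at Cyp26a1 and −0.24 at Cyp1a1. With arrays scaled to the same spread 8 rose and 3 fell, beside 14.6% of all starts called. Over all starts the share of rises among the calls was 82.2%, against 57.5% with scaled arrays and 69.7% after quantile normalization. The count of 9 became 1 when carbohydrate 1h replicate 2 was left out, 2 for carbohydrate 0h replicate 2 and 4 for carbohydrate 0h replicate 1. In ethanol-fed rats Cyp26a1, Cyp2d1 and Cyp1a1 passed at 1h only once ethanol 0h replicate 2, the array of the second run, was left out. These 3 are also among the genes that rose in carbohydrate-fed rats.

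At 6h against 0h, signal rose at 10 P450 starts and fell at 1 in carbohydrate-fed rats, beside 16.3% and 2.34% of all starts (18.7% in all). All 3 Cyp11b starts rose. Cyp11b1 (window on chromosome 7 from 112983922 to 112984332, around the start at 112984080) had 0.57, 0.82, 0.92 and 1.00 at 6h, against 0.17, −0.06 and 0.41 at 0h (difference 0.65 ± 0.15, limma adjusted p = 0.00518). Cyp11b2 rose by 0.59 ± 0.12 (limma adjusted p = 0.0029) and Cyp11b3 by 0.46 ± 0.14 (adjusted p = 0.0268). Of the 6 starts on the list of adrenal and gonadal steroid P450s these 3 rose and Cyp17a1, the steroid hydroxylase and lyase, fell, with a mean of −0.11 at 6h and 0.37 at 0h (difference −0.48 ± 0.15, limma adjusted p = 0.0263). The 3 Cyp11b genes form 1 cluster on chromosome 7, and their signals correlated at r between 0.88 and 0.91 over the 20 arrays, so they are not 3 independent observations.

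Of the 14 starts of family 4, mostly fatty acid hydroxylases, 4 rose at 6h against 0h in carbohydrate-fed rats and none fell (28.6%, beside 16.3% of all starts that rose), and 2 of the 4 share 1 window. The window of Cyp4a1 and Cyp4a10 had 0.49, 0.51, 0.51 and 0.64 at 6h, against −0.16, −0.09 and −0.02 at 0h, well apart. Its difference of 0.63 ± 0.12 (limma adjusted p = 0.00174) was called without any 1 of the 7 arrays. Cyp4a2 had 0.59, 0.41, 0.55 and 0.65, against 0.11, −0.01 and 0.28 (difference 0.43 ± 0.14, limma adjusted p = 0.0292), and all 6 Cyp4a starts lay above 0, though with scaled arrays the shared window of Cyp4a3 turned to −0.05. Cyp4f5 had 0.55, 0.51, 0.65 and 0.71, against −0.19, −0.09 and 0.59 (difference 0.50 ± 0.15, limma adjusted p = 0.0221), with carbohydrate 0h replicate 3 among the 6h values. Rises were also called at Cyp2j3 (0.37 ± 0.10, limma adjusted p = 0.0111), Cyp2e1 (0.39 ± 0.13, adjusted p = 0.0282) and Cyp1a1 (0.48 ± 0.16, adjusted p = 0.0331). By the mean of all probes within 1 kb of the start these 3 turned to −0.24, −0.02 and −0.08, in the order named.

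In ethanol-fed rats 2 P450 starts fell at 6h against 0h and none rose, beside 1.24% and 0.307% of all starts (1.55% in all). Cyp4f1 had −0.52, −0.36, −0.28 and −0.24 at 6h, against 0.38, 0.84 and 0.28 at 0h (difference −0.85 ± 0.15, limma adjusted p = 0.0165). It was the 1 difference from 0h called both with and without array run as a term (−0.84 and adjusted p = 0.0163 with it). Cyp2d4v1 had 0.09, −0.24, −0.05 and 0.25, against 0.54, 0.93 and 0.33 (difference −0.59 ± 0.15, limma adjusted p = 0.0384), and −0.61 with run as a term (adjusted p = 0.0915). It turned to 0.12 where the window was chosen by the mean over all 20 arrays, which took another window. Neither gene's groups overlapped. No P450 call was left without ethanol 0h replicate 2, ethanol 6h replicate 2 or ethanol 6h replicate 3, and 7 were made without ethanol 0h replicate 3. With scaled arrays 4 of the 60 P450 starts fell and none rose, beside 6.65% of all starts called.

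In carbohydrate-fed rats 7 rose and 3 fell at 6h against 0h with scaled arrays, beside 19.7% of all starts called. Over all starts the share of rises among the calls was 87.5%, against 66.9% with scaled arrays and 77.0% after quantile normalization. With run as a term none of the 11 calls of carbohydrate-fed rats passed, and Cyp11b1 differed by 0.70 (adjusted p = 0.251). The 11 became 2 when carbohydrate 0h replicate 2 was left out, 5 for carbohydrate 0h replicate 1, 6 for carbohydrate 6h replicate 4 and 7 for carbohydrate 6h replicate 2.

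Ethanol and carbohydrate were set against each other at each time. No P450 start passed at 0h, 1h or 6h, and neither did any of the 14637 starts (0% called, limma, with 6, 2 and 13 P450 starts and 1160, 1194 and 1660 of all starts at an unadjusted p under 0.05). At 6h the median P450 difference was −0.13, beside −0.11 over all starts, and 11 of 60 lay above 0. The largest in size was at Cyp11b1, with 0.26, 0.14, 0.54 and 0.48 in ethanol-fed rats, against 0.57, 0.82, 0.92 and 1.00 in carbohydrate-fed rats. The groups did not overlap, and the difference of −0.47 had a 95% interval from −0.76 to −0.18 (limma adjusted p = 0.427). In family 4 the median was −0.23, with 2 of 14 starts above 0. Within it the window of Cyp4a1 and Cyp4a10 had 0.08, 0.01, 0.41 and 0.37 in ethanol-fed rats, against 0.49, 0.51, 0.51 and 0.64 in carbohydrate-fed rats (difference −0.32, interval from −0.55 to −0.10, limma adjusted p = 0.427). Cyp4f5 and Cyp4b1, a hydroxylase of fatty acids and some toxins, also had groups that did not overlap at 6h, with differences of −0.37 and −0.26. Outside family 4 so did Cyp3a2. How many of all starts had diets without overlap, at 1h or at 6h, was not counted, so this adds no support.

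At 1h Cyp2e1 had 0.46, 0.60 and 0.52 in ethanol-fed rats, against 0.05, 0.34 and 0.27 in carbohydrate-fed rats, without overlap. The difference of 0.31 had an interval from 0.03 to 0.58 (limma adjusted p = 0.546). At 6h the order was turned, with −0.07, −0.10, 0.30 and 0.18 in ethanol-fed rats, against 0.23, 0.50, 0.36 and 0.44 in carbohydrate-fed rats (difference −0.31, interval from −0.54 to −0.07, limma adjusted p = 0.427), and the groups overlapped. At 0h the smallest p belonged to Cyp2d4v1, with 0.54, 0.93 and 0.33 in ethanol-fed rats, against 0.15, 0.15 and 0.02 in carbohydrate-fed rats (difference 0.49, limma adjusted p = 0.577). A p above the threshold does not show that the diets were alike, as the widths of these intervals tell.

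The change between 1h and 6h was then compared between diets. No start of the 60, and none of the 14637 (0%), passed (limma, with 8 P450 starts and 2067 of all starts at an unadjusted p under 0.05). The median was −0.15, beside −0.15 over all starts. The smallest p values among P450 starts belonged to Cyp2e1 (−0.62 ± 0.18, interval from −0.98 to −0.25) and Cyp26b1 (−0.58 ± 0.17, interval from −0.91 to −0.24), both with a limma adjusted p of 0.209. Both passed with array run as a term (−0.67 and adjusted p = 0.0364 at Cyp2e1, −0.65 and adjusted p = 0.0349 at Cyp26b1), where 2.17% of all starts were called. They passed within the third run as well (−0.62 and adjusted p = 0.0268, −0.87 and adjusted p = 0.00198), where 11.9% of all starts were called. Both were also called without ethanol 1h replicate 1, an array of the second run, with the share of all starts called there not given here. All 6 Cyp4a starts had a difference below 0, with a median of −0.37, and in family 4 as a whole 1 of 14 lay above 0. These counts describe the starts, several of which share windows or sequence.

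Within the third run alone, where 4 ethanol and 3 carbohydrate arrays of 6h and 2 of 1h in each diet can be compared, a few diet differences passed. At 6h signal was lower in ethanol-fed rats at Cyp11b1 (−0.56, limma adjusted p = 0.0347), Cyp26b1 (−0.42, adjusted p = 0.0347) and Cyp1a1 (−0.45, adjusted p = 0.0422), beside 2.44% of all starts called. At 1h it was higher at Cyp26b1 (0.45, limma adjusted p = 0.0481), beside 2.53%. This choice of arrays was made after the data were seen.

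**Figure D5:**
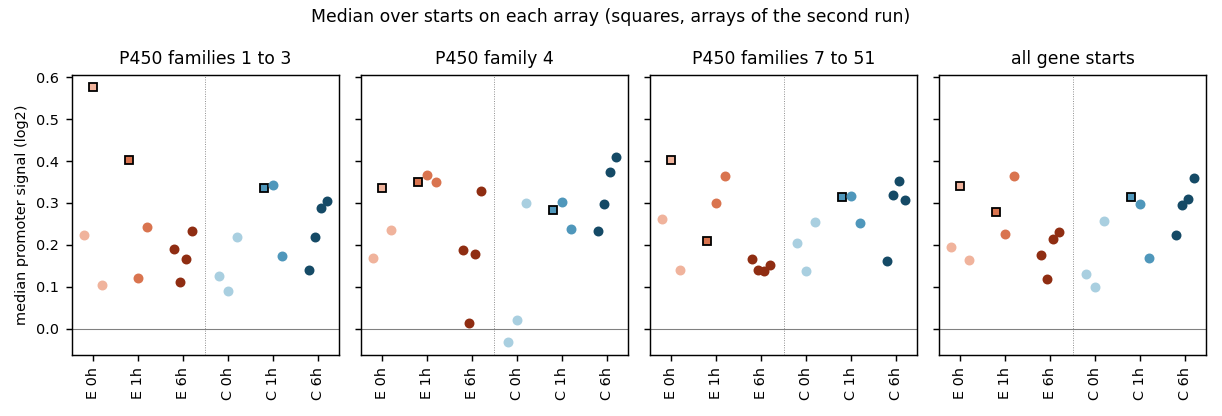
Median promoter signal (log2) on each array over the starts of P450 families 1 to 3, family 4, families 7 to 51 and all genes, by diet and time (E, ethanol, C, carbohydrate; squares, arrays of the second run). In family 4 the carbohydrate arrays of 6h lie between 0.23 and 0.41, and in families 1 to 3 ethanol 0h replicate 2 is highest at 0.58.

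Some P450 promoters, like other starts, had higher signal on the arrays of the second run. That run held arrays of 0h and 1h only, while the other 17 arrays include all those of 6h. A promoter lower at 6h thus shows an excess by design. The mean of the 3 second-run arrays exceeded that of the other 17 by more than 0.5 at 8 of 60 P450 starts. That is 13.3%, beside 9.04% of all starts. The median excess was 0.16, beside 0.07. The largest excess was at Cyp2d3, with 1.25, 0.93 and 0.75 on these arrays and at most 0.56 on any other. Cyp2d1, Cyp4f1, Cyp46a1, Cyp2t1, Cyp2d5, Cyp3a23/3a1 and Cyp2d4v1 followed, with an excess of 0.70, 0.70, 0.66, 0.60, 0.60, 0.56 and 0.52. These include several of the promoters that fell between 1h and 6h, and the values within the third run given beside them hold no array of the second run. Without the second run 3 P450 starts rose and 15 fell in ethanol-fed rats between 1h and 6h, beside 35% of all starts called, and 6 rose and 6 fell in carbohydrate-fed rats, beside 22.9%.

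Of 41 P450 genes on a list of those known in liver, 33 were found by name among the members, and Cyp2c11 was there as Cyp2c. Many of the best known passed in no comparison with all 20 arrays, though some did within the third run. Cyp7a1, the rate-limiting enzyme of bile acid synthesis, had −0.02, −0.01 and 0.45 at 0h in carbohydrate-fed rats, 0.21, 0.37 and −0.06 at 1h and 0.33, 0.72, 0.50 and 0.51 at 6h. The differences of 6h from 1h (0.34, limma adjusted p = 0.0773) and from 0h (0.38, adjusted p = 0.0602) missed the threshold, and in ethanol-fed rats 6h minus 1h was −0.11 (adjusted p = 0.598). In the third run Cyp7a1 of carbohydrate-fed rats was higher by 0.42 at 6h than at 1h (limma adjusted p = 0.034). Cyp8b1, which directs bile acid synthesis to cholic acid, differed by −0.30 between 6h and 1h in ethanol-fed rats (limma adjusted p = 0.127) and by −0.08 in carbohydrate-fed rats (adjusted p = 0.713), and fell within the third run in ethanol-fed rats (−0.43, adjusted p = 0.0152). Cyp27a1, which starts the acidic bile acid pathway in mitochondria, differed by −0.25 (limma adjusted p = 0.24) and −0.29 (adjusted p = 0.184). Cyp3a2 differed by 0.13 (limma adjusted p = 0.513) and 0.20 (adjusted p = 0.319), and Cyp2c7, a retinoid and steroid hydroxylase, by 0.36 in each diet (adjusted p = 0.0731 in ethanol-fed and 0.0806 in carbohydrate-fed rats). Cyp2c7 rose in both diets within the third run (0.41 and adjusted p = 0.0241 in ethanol-fed rats, 0.43 and adjusted p = 0.0379 in carbohydrate-fed rats, limma). Cyp2b1, which phenobarbital induces, stood out on 1 array, at 1.23 on ethanol 6h replicate 2 beside 0.07 to 0.41 on the other 3 of that group, and passed nowhere. Of the 60 starts 25 were called in at least 1 comparison, 42 calls in all, and 35 in none. Of these 35, 11 were called within the third run. The matching shares of all starts were not counted, so these counts do not set P450 starts apart.

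Some close relatives ran together across the 20 arrays and others did not. Cyp2d4v1 and Cyp2d2 correlated at r = 0.84, as did Cyp2d3 and Cyp2d2. Cyp2d1 and Cyp2d3 reached 0.82 and the steroid hydroxylases Cyp2a1 and Cyp2a2 0.80, while Cyp2b1 and Cyp2b3 had r = −0.03. These values share the arrays' runs and, in part, nearly identical sequence. By subfamily, all 5 Cyp2d starts lay lower at 6h than at 1h in ethanol-fed rats, with 2 calls, also with arrays scaled to the same spread. All 5 Cyp4f starts lay lower as well, with 2 calls, though with scaled arrays Cyp4f5 and Cyp4f40 lay at about 0. The 5 Cyp2b starts, among them that of Cyp2b1, a target of the receptor CAR, had no call in any comparison with all 20 arrays. Nor had the 3 Cyp3a and 3 Cyp2a starts. Other choices of arrays gave calls here. In the third run Cyp2b15 rose between 1h and 6h in ethanol-fed rats (0.34, limma adjusted p = 0.0205) and Cyp2b12 in carbohydrate-fed rats (0.34, adjusted p = 0.0438). Without the second run Cyp2a1 (0.29, limma adjusted p = 0.0303) and Cyp3a23/3a1 (0.36, adjusted p = 0.0283) rose at 6h against 0h in carbohydrate-fed rats. That setting called 29.2% of all starts in this comparison. The second run held no array of these 2 groups, so the estimate of the spread changed and the differences did not. Like other differences from 0h, these cannot be told apart from run or lobe.

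A list of genes that serve or regulate P450 enzymes, reductases and nuclear receptors among them, was set beside the members. Of 38 such genes 34 were found, with 35 starts. Between 1h and 6h 16 fell and 1 rose in ethanol-fed rats, beside 20.6% and 6.57% of all starts (median −0.34, beside −0.13 over all starts). In carbohydrate-fed rats 10 fell and 1 rose, beside 8.68% and 14.7% (median −0.18, beside 0.03). Foxa3, a liver forkhead factor, changed by −1.08 in ethanol-fed rats (limma adjusted p = 0.000786) and by −1.18 in those fed carbohydrate (adjusted p = 0.000531). Rxra, the shared partner of the nuclear receptors, changed by −0.66 (limma adjusted p = 0.00154) and −0.56 (adjusted p = 0.00523), and Ppara, the receptor that induces the Cyp4a genes, by −0.57 (adjusted p = 0.00379) and −0.59 (adjusted p = 0.00377). Nr0b2, which represses bile acid synthesis, changed by −0.69 (limma adjusted p = 0.00669) and −0.59 (adjusted p = 0.0188), and Dbp, the circadian activator of several P450 genes, by −0.70 (adjusted p = 0.0012) and −0.61 (adjusted p = 0.00366).

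In ethanol-fed rats the fall was also called at Por, the P450 oxidoreductase (−0.57, limma adjusted p = 0.0224), Nr1i3, which encodes CAR (−0.56, adjusted p = 0.013), Hnf4a (−0.49, adjusted p = 0.0288) and Ahr, the aryl hydrocarbon receptor (−0.52, adjusted p = 0.00909). Under the carbohydrate diet Ahr was lower at 1h than at 0h (−0.76, limma adjusted p = 0.0049), a difference that cannot be told apart from run or lobe. The 2 starts of Ephx1, the microsomal epoxide hydrolase, went opposite ways in ethanol-fed rats, by −0.73 (limma adjusted p = 0.000813) and 0.68 (adjusted p = 0.000791). No start of this list passed between the diets at 0h, 1h or 6h (limma, with 2, 5 and 4 of the 35 at an unadjusted p under 0.05). How far these members and the P450 genes differ as lists was not tested.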

How the data were processed

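Binding of p65 was measured on 20 two-colour NimbleGen tiling arrays of liver DNA, 1 per sample. Groups came from the sample titles, since the source names give 0h and replicate 1 throughout, and run, slide and animal from identifiers that came with the arrays. Per the labels, Cy5 held the precipitated DNA and Cy3 the input, while the labelling text names IgG-precipitated DNA as reference, so the reference was not settled.

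The authors' deposited table held 1 log2 ratio per probe and array. How it was centred is not given in the sources used here. Per the file headers, each array had an authors' list of peaks with position, nearest start, a score and an FDR (a p-value type measure) of at most 0.19961. Peak caller and build are not given in the sources used here.

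Values were multiplied by −1, since from 99.9% to 100% of each array's peaks lay at negative deposited values, and centred on the array median, with no loess or quantile step. Starts needed a 500 bp window with at least 4 probes within 5 kb; 14637 of 14638 had one. Signal was fitted with limma 3.58.1 under R 4.3.3 (eBayes with a mean-variance trend), all 20 arrays in 1 model of 6 group means, two-sided, with Benjamini-Hochberg adjustment over 14637 starts and a threshold of 0.05. Intervals are 95% and use the fit's moderated degrees of freedom. The number of arrays limits their precision, and 4 of the 16 animals gave 2 arrays each, which this fit treats as independent. The fit was tested on simulated data.

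Genes were named where a start passed in a comparison (at most 10 rises and 10 falls), where they ranked among the 10 with peaks on most arrays, or where they stood on a list of liver P450 genes. Members, lists and tests were chosen with earlier results of these data known. Of the 60 accessions 56 matched RefSeq (GRCr8, used for names and sequences alone), and 4 were renamed. Cyp1a2, Cyp2b2, Cyp2c6, Cyp2c12, Cyp2c13, Cyp3a9 and Cyp4a14 were not found by name and were not analysed here. Python 3.11.15 with numpy 2.4.6, pandas 2.3.3, scipy 1.17.1, matplotlib 3.10.9 and Biopython 1.88 was used. Alternatives were the mean over 1 kb or 5 kb, another choice of window, scaling, quantile normalization, run, slide, animal or replicate number in the model, the compared groups alone, each array left out and stricter peak rules.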

Additional observations from a re-analysis of the deposited data

Results flagged for a closer look

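In groups of 4 arrays, 92 in all over the 46 starts examined, 5 had 1 array that stood far from the other 3, by its gap to them relative to the whole range. Chance gives about 1 in 20 such groups. On carbohydrate 6h replicate 1, the sole array of the fourth run, Cyp11b3 had a signal of 0.49, with 0.73, 0.74 and 0.75 on the other 3, and Cyp26b1 had 0.021, with 0.29, 0.32 and 0.34. On carbohydrate 6h replicate 4 the window shared by Cyp4a1 and Cyp4a10 had 0.64, with 0.49, 0.51 and 0.51 on the others. On ethanol 6h replicate 2 Cyp51 had 0.32, with 0.14 on each of the others. What set these arrays apart was not tested.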

How the results depend on the processing

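Counts of P450 starts that passed moved by over 1.5 times in these cases, and the cause was not tested. In ethanol-fed rats the 5 kb mean gave 2 for 1h minus 0h and 0 for 6h minus 0h (5.53% and 0% of all starts). In carbohydrate-fed rats it gave 16 and 7 (36.2% and 9.78%). Between 1h and 6h it gave 25 in ethanol-fed and 20 in carbohydrate-fed rats (48.5% and 37%). By the mean within 1 kb, 15 passed for 1h minus 0h and 20 for 6h minus 1h in carbohydrate-fed rats (16.4% and 28.6%). With array run as a term, 0 passed for 1h or 6h minus 0h in carbohydrate-fed rats (0.0137% and 0.608% of all starts). The run term gave 18 for 6h minus 1h in ethanol-fed rats (35.2%) and 2 for the difference between diets in that change (2.17%). In the third run alone, 1 passed between diets at 1h and 3 at 6h (2.53% and 2.44% of all starts). For 6h minus 1h there, 18 passed in ethanol-fed and 15 in carbohydrate-fed rats (38.5% and 23.4%). For the difference between diets in that change 3 passed (11.9%). Without the second run 8, 1 and 18 passed for 1h minus 0h, 6h minus 0h and 6h minus 1h in ethanol-fed rats. The matching shares of all starts were 19.5%, 0.793% and 35%. Under the same setting 1 passed for the difference between diets in the change (5.6%). For 6h minus 0h in ethanol-fed rats the count was 4 with scaled arrays (6.65% of all starts) and 1 with another choice of window (1.05%). It was 1 with slide as a random block (0.95%) and 0 with the compared groups alone (0.0752%). For 6h minus 1h in carbohydrate-fed rats the count was 4 with scaled arrays (17.1%) and 15 with the compared groups alone (31%). With animal as a random block no count moved that far, and 2 of the 42 calls were lost (Cyp1a1, ethanol diet, limma adjusted p = 0.0552, and Cyp11b3, carbohydrate diet, adjusted p = 0.0542, both 6h minus 1h). The third-run, second-run and animal settings, and leaving arrays out of the bound counts, were added after the data were seen.

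Leaving out 1 array gave 0 to 3 calls for 1h minus 0h, 0 to 7 for 6h minus 0h and 8 to 12 for 6h minus 1h in ethanol-fed rats. It gave 1 to 10, 2 to 15 and 2 to 7 in carbohydrate-fed rats, 0 to 0 between diets at each time and 0 to 2 for the difference in the change. Bound genes then numbered 9 to 11, 11 to 15 and 7 to 13 at 0h, 1h and 6h in ethanol-fed rats, and 5 to 7, 11 to 14 and 15 to 18 in carbohydrate-fed rats. With peaks of FDR at most 0.05, bound genes numbered 5, 9 and 4 at 0h, 1h and 6h in ethanol-fed rats, and 6, 6 and 6 in carbohydrate-fed rats (4.21%, 20.0% and 10.6% of all genes, and 4.89%, 10.5% and 14.3%). With a peak on all arrays they numbered 5, 9 and 1 in ethanol-fed and 2, 8 and 3 in carbohydrate-fed rats (4.03%, 15.6% and 6.73% of all genes, and 5.86%, 11.4% and 11.6%). With a peak within 1 kb of the start they numbered 11 and 7 at 0h and 6h in ethanol-fed rats, and 8 and 11 in carbohydrate-fed rats (6.86% and 14.7% of all genes, and 9.16% and 19.7%).

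Among the 42 called pairs of promoter and comparison, a run term turned the direction at Cyp26a1 (−0.12), Cyp2d1 (−0.14) and Cyp1a1 (−0.24) for 1h minus 0h, and at Cyp4a2 (−0.025) and Cyp1a1 (−0.28) for 6h minus 0h, all in carbohydrate-fed rats. With the 5 kb mean it turned at Cyp2j3 for 1h and 6h minus 0h (−0.060 and −0.14), Cyp2e1 for 6h minus 0h (−0.038) and Cyp11b2 for 6h minus 1h (−0.040) in carbohydrate-fed rats, and at Cyp2e1 for 6h minus 1h in ethanol-fed rats (0.036). With the 1 kb mean it turned in carbohydrate-fed rats at Cyp1a1 for 1h and 6h minus 0h (−0.027 and −0.079), Cyp2e1 (−0.022) and Cyp2j3 (−0.24) for 6h minus 0h, and Cyp11b2 (−0.037) and Cyp20a1 (−0.024) for 6h minus 1h. With the window chosen over all 20 arrays it turned at Cyp2d4v1 for 6h minus 0h in ethanol-fed rats (0.12).

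Deviations of arrays with the same replicate number had a mean r of 0.069 over 46 pairs (22 of them over 0.1), against −0.027 over 120 pairs with different numbers (38 over 0.1). Since not every pair was over 0.1, the numbers were not taken as a pairing. With the replicate block 11 starts passed for each of 1h minus 0h, 6h minus 0h and 6h minus 1h in carbohydrate-fed rats, 2 and 11 for 6h minus 0h and 6h minus 1h in ethanol-fed rats and 0 elsewhere, and 1 of the 42 calls was lost (Cyp11b3, carbohydrate diet, 6h minus 1h, limma adjusted p = 0.0589).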
